A study of Mus musculus with 139 samples.

Results

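Slc17a8, Slc17a6 and Slc17a7, the genes of the vesicular glutamate transporters VGLUT3, VGLUT2 and VGLUT1, were followed across single hair cells of the mouse cochlea. They are the 3 lines whose gene identifier maps to these symbols, out of 55335 lines in the count table. RNA was sequenced from 139 single cells taken between postnatal days 14 and 16, and the series compares hair cells of both types from 3 regions of the cochlea. The labels give no strain, sex or treatment. The groups are basal inner hair cells (IHCs, 19 cells), middle IHCs (34), apical IHCs (34), basal outer hair cells (OHCs, 8), middle OHCs (23) and apical OHCs (21). The base of the cochlear spiral is tuned to high frequencies and the apex to low ones. Cells are numbered below within their group in accession order.

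No label names an animal, so each group stands for 1 sample, and the differences are given without p-values and without a replicate check. Counts per cell ran from 71027 to 13576942, with group medians from 1871530 (middle OHCs) to 6842128 (basal IHCs). Levels are counts summed over a group and scaled to a library size of 1000000 (CPM), with exact 95% Poisson intervals. Such an interval covers counting error only, not the spread between cells. Fewer cells with a transcript and fewer transcripts per cell cannot be told apart in a summed level. The titles carry a number of unstated meaning, 81 cells having 100 or less (lower numbers) and 58 above 100 (higher numbers). Values within each series are given beside the main ratios. The labels were checked against 8 IHC markers and 8 OHC markers, and the markers of the other type outweighed those of the labelled type in 9 cells. These were 4 apical IHCs, 1 middle IHC, 2 basal OHCs and 2 middle OHCs. The OHC markers were weakest in basal OHCs, with a median sum of 407 CPM, against 1901 CPM in middle and 8266 CPM in apical OHCs. The 8 markers of hair cells in general had a median sum of 1679 CPM in basal IHCs and 35.6 CPM in basal OHCs. Blood and immune markers had 884 CPM in basal IHCs and 6704 CPM in basal OHCs. Their part in the basal ratios below was not tested. An apical IHC, cell 21, carries a suffix after its title number. Its log2 profile had a Pearson correlation of 0.212 with apical IHC cell 22, against a median of 0.399 with the other apical IHCs.

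Vesicular glutamate transporters load glutamate into synaptic vesicles and are driven by the proton gradient that the vacuolar proton pump builds across the vesicle membrane. VGLUT1 and VGLUT2 are the main forms in excitatory neurons of the brain. VGLUT3 is the form on the vesicles of the IHC ribbon synapse, where IHCs excite the auditory nerve, and mice without it are deaf.

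In GRCm38, Slc17a8 lies on the minus strand of chromosome 10 from 89574020 to 89621253, with 4720 exonic bases. Slc17a6 lies on the plus strand of chromosome 7 from 51622006 to 51671119, with 5399 exonic bases, and Slc17a7 on the same strand from 45163949 to 45176142, with 5392. None of the 3 shares exonic bases with another annotated gene. No stretch of 43 bases, the read length in the labels, is shared between the transcripts of any pair of them. Of 4664 such stretches in Slc17a8, 93 (1.99%) also occur in other genes, and none in Slc17a6 or Slc17a7 do. The 250 bases before the first start site of each gene are shown because Slc17a8 and its relatives differ so widely in IHCs (RefSeq, GRCm38.p6, each read along its gene's strand). Capitals mark the letters CANNTG, which form their own reverse complement, so both strands are covered.
Slc17a8, chr10:89621250-89621499, minus strand: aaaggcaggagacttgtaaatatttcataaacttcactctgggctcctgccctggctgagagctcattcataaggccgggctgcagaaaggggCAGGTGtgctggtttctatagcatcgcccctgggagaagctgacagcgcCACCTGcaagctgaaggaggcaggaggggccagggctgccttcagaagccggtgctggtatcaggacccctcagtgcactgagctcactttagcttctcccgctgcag
Slc17a6, chr7:51621580-51621829, plus strand: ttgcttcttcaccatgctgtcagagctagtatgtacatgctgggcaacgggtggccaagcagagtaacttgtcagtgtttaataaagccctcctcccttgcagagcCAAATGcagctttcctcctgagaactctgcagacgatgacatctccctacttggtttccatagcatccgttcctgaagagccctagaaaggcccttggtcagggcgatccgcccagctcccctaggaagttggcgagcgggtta
Slc17a7, chr7:45163671-45163920, plus strand: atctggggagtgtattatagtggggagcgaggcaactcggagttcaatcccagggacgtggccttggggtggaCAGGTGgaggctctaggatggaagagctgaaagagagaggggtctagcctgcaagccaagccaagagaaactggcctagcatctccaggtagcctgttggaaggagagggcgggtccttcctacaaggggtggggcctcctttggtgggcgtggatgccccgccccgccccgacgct
CANNTG occurs at 2 places before Slc17a8 and at 1 before each of the others, and 66% of 27025 promoters of the same set hold it. The letters TATAAA, found in 13% of that set on either strand, and CCAAT, found in 34.5%, occur in none of the 3. A match here is a description of the letters only.

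Slc17a8 was almost confined to IHCs. IHCs gave 328826 of its reads (99.86%) and OHCs 455 (0.138%). The levels in OHCs thus rest on few reads. In the base its level was 706 CPM (701 to 710) in IHCs and 0.0996 CPM (0.0121 to 0.360, 2 counts) in OHCs. In the middle it was 777 CPM (773 to 781) in IHCs and 0.137 CPM (0.0798 to 0.219, 17 counts) in OHCs. In the apex it was 430.0 CPM (427 to 433) in IHCs and 4.34 CPM (3.94 to 4.76, 436 counts) in OHCs. The level in each IHC group was thus above that in each OHC group, beyond counting error.

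The ratio of IHCs over OHCs was 7085 (counting interval 1961 to 58500) in the base, 5674 (3544 to 9740) in the middle and 99.2 (90.3 to 109.2) in the apex. On the log2 scale, with 1 CPM added, these were 9.33, 9.42 and 6.34, with a mean over regions of 8.36. Within the series, lower numbers gave 9.61, 10.65 and 9.13 in base, middle and apex, and higher numbers 9.26, 8.25 and 5.72. Among 15004 genes with at least 5 CPM in 1 or more groups, Slc17a8 ranked 1 in the middle, 15 in the base and 52 in the apex, and 2 in the mean. Genes at least 2-fold higher in IHCs made up 48.9% of those tested in the base, 29.7% in the middle, 32.4% in the apex and 39.2% in the mean. The median of all genes was 0.89 in the base, 0.069 in the middle, 0.019 in the apex and 0.59 in the mean. The basal and mean ratios of IHCs over OHCs below carry this shift. Ratios of basal over apical and basal over middle OHCs carry one of opposite sign, with medians of −0.72 and −1.045. With DESeq2 size factors the median of IHCs over OHCs fell to 0.39 in the base and 0.26 in the mean. In the mean 32.4% of genes were then 2-fold higher and 23.2% lower in place of 39.2% and 17.3%.

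Reads of Slc17a8 were found in 83 of 87 IHCs (95.4%, exact Clopper-Pearson interval 88.6% to 98.7%) and in 11 of 52 OHCs (21.2%, 11.1% to 34.7%). After each cell was thinned to 582635 counts, reads remained in 16 of 19 basal, 32 of 32 middle and 29 of 30 apical IHCs. They remained in 0 of 7 basal, 3 of 18 middle and 4 of 19 apical OHCs. Among IHCs, 60 of the 87 lay above the highest OHC, so the types overlapped in the other 27 IHCs. For comparison in the other direction, reads of Ocm, the OHC marker that encodes oncomodulin, a calcium buffer, were found in 8 of 19 basal, 24 of 34 middle and 33 of 34 apical IHCs.

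The Slc17a8 reads of OHCs lay mostly in 2 apical cells. Apical OHC cell 13 held 335 counts (51.5 CPM) and cell 10 held 88 (30.99 CPM), together 97.0% of the counts of their group. Both had high OHC markers, with 8870 and 7552 CPM summed over the 8 markers, against 92.7 and 243 CPM summed over the IHC markers. Otof, the IHC calcium sensor of vesicle release, was at 0 CPM in cell 13 and 103.5 CPM in cell 10. Without cell 13 the apical log2 ratio of IHCs over OHCs was 7.70 in place of 6.34. The highest of the other OHCs was apical cell 12 at 4.79 CPM, from 4 counts.

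**Figure D1:**
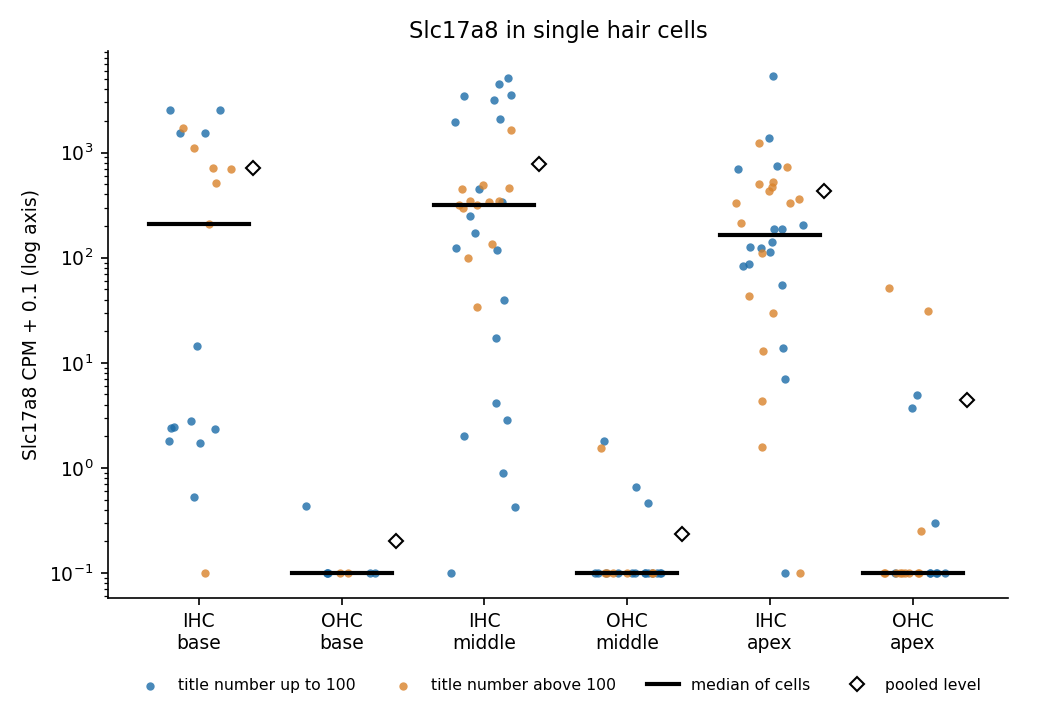
Slc17a8 in each cell (points, CPM + 0.1 on a log axis, coloured by title number), with the median of the cells (bar) and the pooled scaled level (diamond) of each group of cell type and region. Most IHCs lie above the highest OHC at 51.5 CPM, and a lower band of IHCs under 10 CPM is densest in the base.

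Levels in IHCs were far from uniform. In basal IHCs the lowest cell was at 0, the median at 211 and the highest at 2564 CPM. Middle IHCs ran from 0 over a median of 319 to 5099 CPM, and apical IHCs from 0 over 164 to 5397 CPM. A level under 10 CPM was found in 8 of 19 basal, 6 of 34 middle and 5 of 34 apical IHCs, and a level of 1000 CPM or more in 6, 8 and 3. Each region thus held cells at 0 and cells above 1000 CPM, and the 8 IHCs with the most reads held 50% or more of all Slc17a8 reads of IHCs. A single cell held 25.1% of the basal reads (cell 12), 22.1% of the middle reads (cell 33) and 29.5% of the apical reads (cell 21, the one with the suffix).

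The spread differed between the title series, and not in the same way in each region. The 12 basal IHCs of that series had 7 cells under 10 CPM, 1 at 14.3 CPM and 4 at 1523 CPM or more, with none between. Their median was 2.52 CPM, against 705 CPM in the 7 cells of higher number, where 1 cell was at 0 and the others at 211 to 1711 CPM. The 13 middle IHCs of higher number lay closest together, with quartiles of 294 and 453 CPM around a median of 337 CPM. The 21 of lower number had quartiles of 4.04 and 2098 CPM around a median of 170 CPM. Apical IHCs ran the other way, with quartiles of 83.8 and 206 CPM around a median of 127 CPM for the 17 lower numbers. The 17 higher numbers had quartiles of 29.9 and 469 CPM around a median of 329 CPM. What the numbers stand for was not tested.

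Between regions, the pooled Slc17a8 level of IHCs was highest in the middle and lowest in the apex. The log2 ratio was 0.71 for base over apex (1.64-fold), 0.85 for middle over apex (1.81-fold) and −0.14 for base over middle (0.908-fold), the last close to the median of the genes tested (−0.14). None of these reached 2-fold. At that size, 26.5% of the 15004 genes tested were higher and 31.5% lower in base over apex, 28.7% and 23% in middle over apex, and 20.4% and 31.9% in base over middle. The order did not hold within the series. Middle over apex was 1.15 among lower numbers and −0.10 among higher ones, and base over apex was 0.074 and 0.69. Base over middle was −1.07 among lower and 0.79 among higher numbers. Without apical cell 21, base over apex was 1.16 and middle over apex 1.30. Without the 9 cells whose markers go against their label they were 0.59 and 0.80, and the mean ratio of IHCs over OHCs was 8.36. In OHCs the ratios were −2.28 for base over apex and −2.23 for middle over apex, and −0.91 and −0.87 without apical OHC cell 13. The ratio of base over middle in OHCs was −0.048, where 2 counts stand against 17. Of the genes tested, 47.6% were at least 2-fold lower in basal than in apical OHCs, 31.3% in middle than in apical and 50.4% in basal than in middle OHCs.

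The IHC genes Slc17a8 and Otof did not stand at matching levels in the same cells. Of 87 IHCs, 56 had at least 100 CPM of both and 6 had neither. Another 25 had that much Otof with less Slc17a8, and 0 had the reverse. A shared cut favours this outcome, because pooled Otof was 3445 to 6506 CPM in the IHC groups, against 430.0 to 777 CPM for Slc17a8. The 0 also rests on middle IHC cell 27, with 5099 CPM of Slc17a8 and Otof only just above 100 CPM. Among the 56, Slc17a8 was higher than Otof in basal cell 10 and middle cells 16, 22, 26, 27 and 33, and lower otherwise. Slc17a8 was under 10 CPM beside an Otof level of 1000 CPM or more in 10 IHCs, 5 of them basal, 3 middle and 2 apical. Basal IHC cell 8, one of the deepest at 11132618 counts, had 19 counts of Slc17a8 (1.71 CPM) and 9060 CPM of Otof. Basal IHC cell 2 had 0 counts of Slc17a8 at a total of 2827490 and 1851 CPM of Otof. Over the 87 IHCs, Spearman's rho between the genes was 0.288 (Pearson 0.433 on the log2 scale, 0.336 without the 2 cells farthest from the median of Otof). It was 0.142 over the 50 cells of lower and 0.525 over the 37 of higher number. These points share the library of each cell, and rho between Slc17a8 and total counts was 0.227. Per kilobase of exon, the pooled level of Slc17a8 was 150 CPM in basal, 165 in middle and 91.1 in apical IHCs, against 823, 436 and 689 CPM for Otof.

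**Figure D2:**
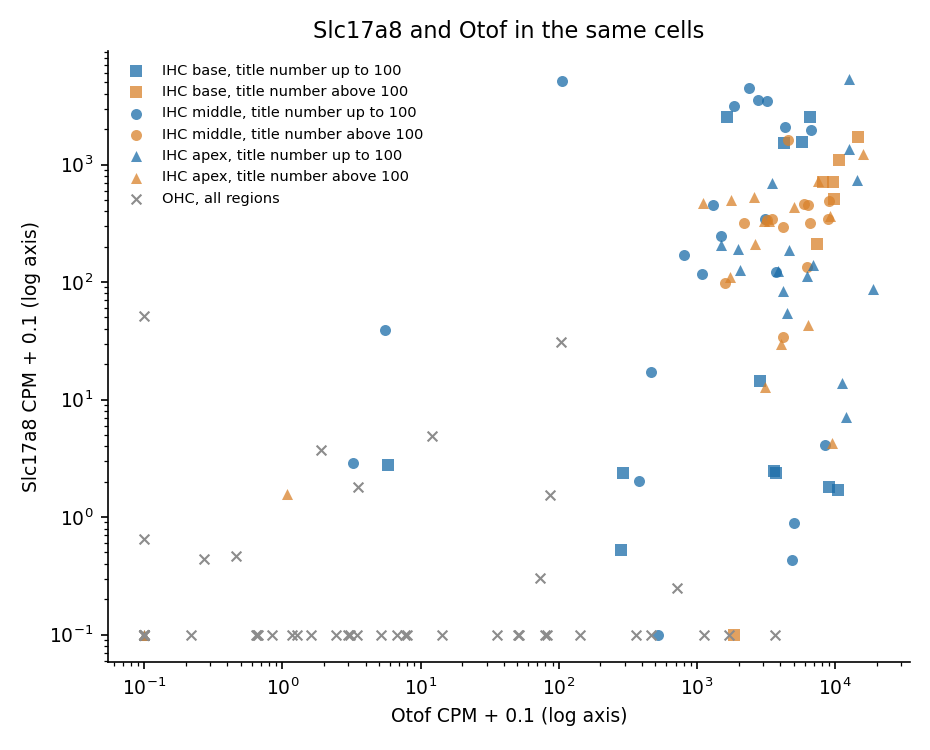
Slc17a8 against Otof in each cell (CPM + 0.1, both axes log), with IHCs by region and title number and OHCs as grey crosses. The IHCs at the right edge have high Otof and range from 0 to 5397 CPM of Slc17a8. No IHC has 100 CPM of Slc17a8 with under 100 CPM of Otof, but middle IHC cell 27 lies only just above that Otof level.

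Slc17a7, which encodes VGLUT1, was low in both types and had no common direction across the regions. Its level was 34.3 CPM (33.3 to 35.3) in IHCs and 20.2 CPM (18.3 to 22.2) in OHCs of the base. In the middle it was 6.78 CPM (6.44 to 7.13) in IHCs and 12.9 CPM (12.3 to 13.6) in OHCs. In the apex it was 10.5 CPM (10.01 to 11.1) in IHCs and 38.2 CPM (37.04 to 39.5) in OHCs. So with this scaling the pooled level was higher in IHCs in the base, and it was lower in IHCs in the middle and apex. The log2 ratios were 0.74, −0.84 and −1.77 in base, middle and apex, with a mean of −0.62. The basal ratio lay below the median of all genes there (0.89) and turned to −0.20 with DESeq2 size factors. Lower numbers gave 1.88, −0.99 and 0.20 in base, middle and apex, and higher numbers −0.16, −0.79 and −1.56. Only the apical ratio passed 2-fold, and there 28.6% of the genes tested were at least 2-fold lower in IHCs. Those shares were 16.1% in the base, 20.7% in the middle and 17.3% in the mean.

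Single cells set these pooled levels. Basal IHC cell 15 held 65.9% of its group's Slc17a7 counts (335 CPM) and basal OHC cell 7 held 83.5% (171 CPM). That OHC is 1 of the 9 cells whose markers go against their label, with 216 CPM of IHC and 22.8 CPM of OHC markers. Without the IHC the basal ratio was −0.65, and without the OHC 2.95. Apical OHC cells 5 and 8 (174 and 446 CPM) held 92.1% of theirs, and without cell 5 the apical ratio was −0.67. The median cell was at 11.8, 0.582 and 0 CPM in basal, middle and apical IHCs, against 0.873, 0.182 and 0.202 CPM in OHCs. Reads were found in 52 of 87 IHCs and 29 of 52 OHCs. After thinning, 13 of 19 basal, 13 of 32 middle and 12 of 30 apical IHCs had a read, against 3 of 7, 11 of 18 and 9 of 19 OHCs.

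The regional pattern of Slc17a7 in IHCs turned with the title number. Base over apex was 1.62 and base over middle 2.18 when pooled, 5.53 and 5.27 among lower numbers, and −1.72 and −1.0 among higher numbers. Without basal IHC cell 15 the pooled ratios were 0.23 and 0.80. Of the genes tested, 26.5% and 20.4% were at least 2-fold higher in these comparisons. In OHCs base over apex was −0.89, middle over apex −1.50 and base over middle 0.61, and without apical OHC cell 5 base over apex was 0.20 and middle over apex −0.40. Without basal OHC cell 7, base over apex was −3.10 and base over middle −1.60. Lower numbers gave 3.85, 1.45 and 2.40 for these 3 ratios, and higher numbers −3.12, −1.49 and −1.63. In basal IHCs the level was 62.5 CPM (60.6 to 64.4) among lower and 4.88 CPM (4.33 to 5.48) among higher numbers. The other groups ran the opposite way, apart from basal OHCs at 16.3 CPM among lower and 5.56 CPM among higher numbers. Middle IHCs had 0.643 CPM among lower and 10.7 CPM among higher numbers, apical IHCs 0.377 and 18.4 CPM, middle OHCs 2.27 and 19.3 CPM and apical OHCs 0.197 and 56.1 CPM. Without the 9 cells whose markers go against their label, the mean ratio of IHCs over OHCs was 0.041 in place of −0.62.

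Neurons of the cochlea express vesicular glutamate transporters too, so 8 neuron markers were summed in each cell. The medians were 1814, 1977 and 1105 CPM in basal, middle and apical IHCs, against 6120, 3210 and 1561 CPM in OHCs. Prph was near 0, at 0.0152 to 0.647 CPM, while Nefm, a neurofilament gene, stood at 723 to 9320 CPM over the groups. Of the 7 neuron markers past the filter, 4 were at least 2-fold lower in IHCs and 0 higher in the mean of the regions (median −1.18). Of the genes tested, 17.3% were lower and 39.2% higher there, with a median of 0.59. Basal OHC cell 7, the high cell for Slc17a7, had the highest neuron sum of all basal OHCs at 21110 CPM. The other high cells had 876 CPM (basal IHC cell 15), 1888 CPM (apical OHC cell 5) and 3261 CPM (apical OHC cell 8). The first lay below its group's median, and both apical OHCs lay above theirs. Among apical OHCs of higher title number, only cell 11 at 3991 CPM was above cell 8. The part of neuronal RNA in these levels was not tested.

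Slc17a6, which encodes VGLUT2, was the lowest of the 3 in IHCs, with 1.08, 0.673 and 0.346 CPM per kilobase of exon in base, middle and apex, against 6.36, 1.26 and 1.95 for Slc17a7. Its level was 5.82 CPM (5.41 to 6.24) in IHCs and 9.46 CPM (8.16 to 10.9) in OHCs of the base. The middle had 3.63 CPM (3.39 to 3.89) in IHCs and 12.8 CPM (12.1 to 13.4) in OHCs, and the apex 1.87 CPM (1.66 to 2.10) and 1.80 CPM (1.55 to 2.08). The log2 ratios of IHCs over OHCs were −0.62, −1.57 and 0.035, with a mean of −0.72, and the apical one turned to −0.19 with DESeq2 size factors. Only the middle passed 2-fold, where the level in IHCs was 0.285 of that in OHCs. Of the genes tested, 20.7% were at least 2-fold lower in IHCs there.

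Its reads came almost wholly from cells of higher title number. Of all Slc17a6 counts, 46.0% were in the 37 IHCs and 51.1% in the 21 OHCs of that series, leaving 2.66% and 0.289% for the 50 IHCs and 31 OHCs of lower number. Reads were found in 24 of 87 IHCs and 19 of 52 OHCs. Each of the 13 cells at 10 CPM or more had a higher title number. In middle OHCs, 1581 of 1583 counts lay in the 7 cells of that series, 6 of which had a read. Levels there were 13.1, 30.8, 58.3 and 71.3 CPM in cells 3, 6, 1 and 4, and under 10 CPM in the other 3. The middle ratio of IHCs over OHCs was −1.75 among higher and 1.11 among lower numbers, the value of the lower numbers resting on 89 counts in IHCs and 2 in OHCs. Higher numbers gave −2.53 in the base and 0.26 in the apex, and lower numbers −0.0087 and −0.17.

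In the base and apex 1 or 2 cells held most of the counts. Middle IHCs were more spread, with reads in 14 of 34 cells and 39.1% of the counts in the top 2. Basal IHC cells 2 (146 CPM) and 1 (46.8 CPM) held 99.0% of the counts of their group, and basal OHC cell 2 (75.4 CPM) held 98.4%. Without that OHC the basal ratio was 2.55 in place of −0.62. Apical IHC cell 3 (25.3 CPM) held 90.6% and apical OHC cell 10 (36.3 CPM) held 56.9% of the counts of their groups. Without that IHC the apical ratio was −1.24, and without that OHC 0.67. Between regions, Slc17a6 was at 1.25 for base over apex and 0.69 for middle over apex in IHCs, and at 1.90 and 2.30 in OHCs. In IHCs base over apex was 0.38 without basal cell 2, 0.61 without basal cell 1 and 2.52 without apical cell 3. Without apical cell 3, middle over apex in IHCs was 1.96. Within IHCs, 26.5% of the genes tested were at least 2-fold higher in base over apex and 28.7% in middle over apex. In OHCs base over apex was −1.27 without basal cell 2 and 2.54 without apical cell 10, and middle over apex was 2.94 without the same apical cell. Within OHCs, 17.4% of the genes tested were at least 2-fold higher in base over apex, 31.4% in middle over apex and 15.6% in base over middle. The median cell was at 0 CPM in each of the 6 groups. Neuron marker sums in the 3 highest cells were 4168 CPM (basal IHC cell 2), 4591 CPM (basal OHC cell 2) and 5319 CPM (middle OHC cell 4). These lay within the range of their whole groups, but each was the highest among the cells of higher title number in its group. The next sums there were 1814 CPM (basal IHC cell 1), 4111 CPM (basal OHC cell 1) and 4434 CPM (middle OHC cell 1). The part of neuronal RNA in the Slc17a6 levels was not tested.

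**Figure D3:**
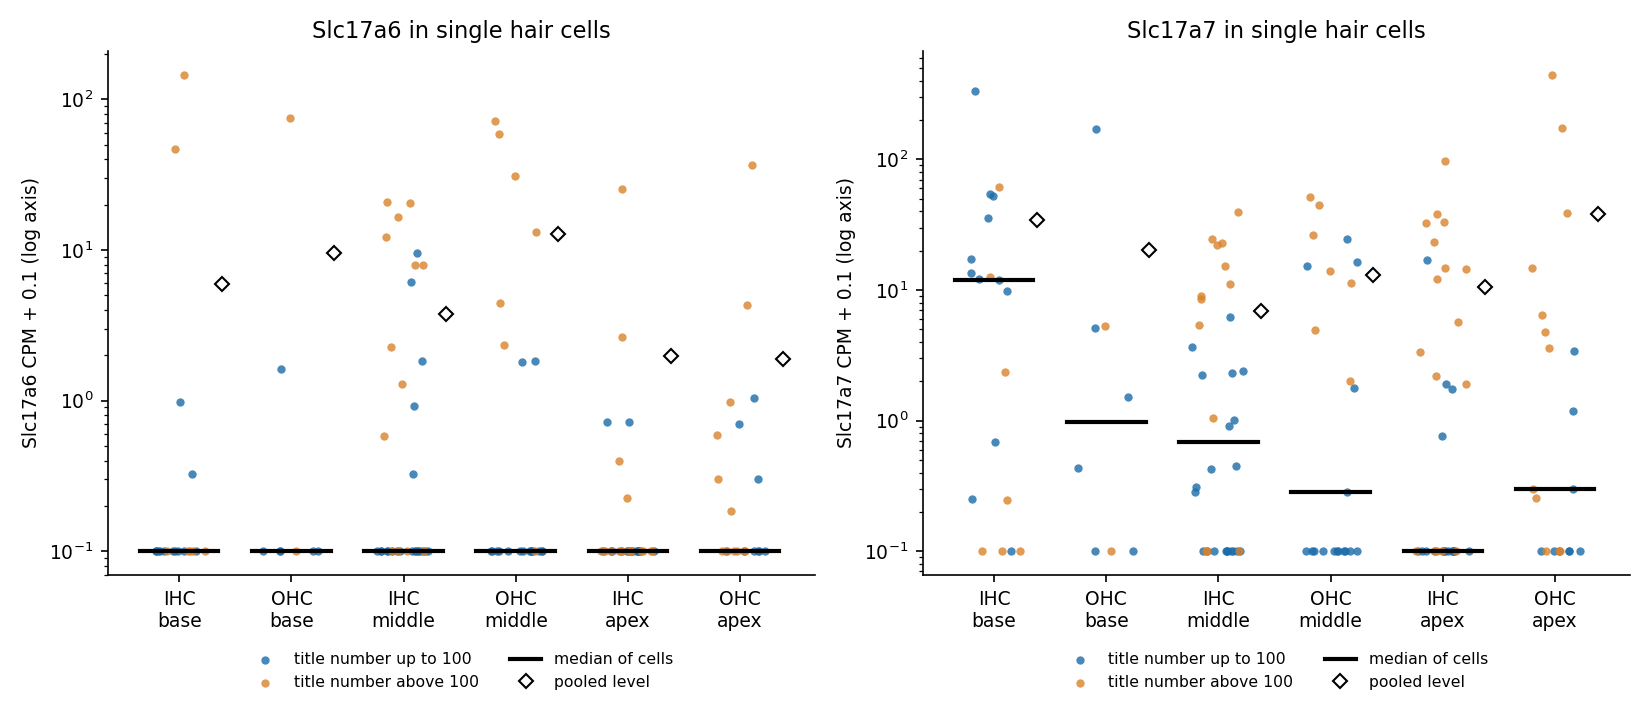
Slc17a6 (left) and Slc17a7 (right) in each cell (points, CPM + 0.1 on log axes, coloured by title number), with the median of the cells (bar) and the pooled scaled level (diamond) of each group. Pooled levels lie well above the medians because few cells carry the reads, and the cells with 10 CPM or more of Slc17a6 all have higher title numbers.

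Per kilobase of exon, Slc17a8 made up nearly all of the summed level of the 3 genes in IHCs. Its share was 95.3% in basal, 98.8% in middle and 97.5% in apical IHCs, against 0.383%, 0.606% and 11.01% in OHCs of these regions. In OHCs the larger part was Slc17a7, with 67.8%, 50.04% and 85.0%, followed by Slc17a6 with 31.8%, 49.4% and 4.0%. These OHC shares rest on low sums and on the few cells named above. From cell to cell, Slc17a8 had the highest level per kilobase of the 3 in 74 of 87 IHCs, Slc17a7 in 11 and Slc17a6 in 1, and 1 IHC had no read of any. Of 52 OHCs, 8 had Slc17a8 highest, 20 Slc17a7 and 9 Slc17a6, and 15 had no read of any. Reads of all 3 genes were found together in 17 of 87 IHCs and 4 of 52 OHCs. Slc17a8 led in fewer basal IHCs, 12 of 19, than middle (32 of 34) or apical ones (30 of 34). The 6 basal IHCs led by Slc17a7 (cells 8, 13, 14, 15, 16 and 18) all had lower title numbers. The 1 led by Slc17a6 (cell 2) had a higher number.

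**Figure D4:**
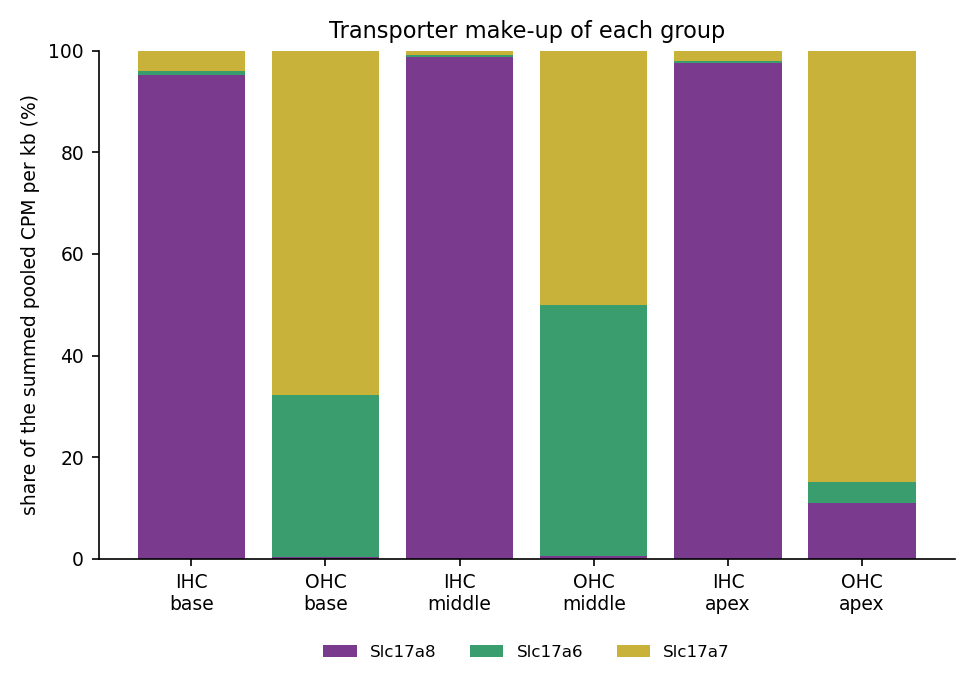
Share of each transporter gene in the summed pooled CPM per kilobase of exon of the 3 genes (bars from 0 to 100%), by cell type and region. Slc17a8 fills 95.3% to 98.8% of the IHC bars, and Slc17a7 and Slc17a6 fill most of each OHC bar.

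Apart from Otof and Rims2, no gene named below from the lists of glutamate loading, supply and release had a mean log2 ratio of IHCs over OHCs above 2.81. The vacuolar proton pump, which powers the transporters, had all 18 listed genes past the filter, and 11 were at least 2-fold higher and 0 lower in IHCs in the mean of the regions (median log2 1.29, against 0.59 over the genes tested, of which 39.2% were higher and 17.3% lower). Atp6v1e1 (2.81) and Atp6v1c1 (2.80), both subunits of the part that splits ATP, were highest and Atp6v1g2 (−0.96) and Atp6v0d1 (−0.12) lowest. The count was 15 higher and 0 lower in the base, 7 and 1 in the middle and 5 and 3 in the apex, against backgrounds of 48.9%, 29.7% and 32.4% higher. In the apex the count is close to that background, with a median of 0.041 against 0.019 over the genes tested. In the base the weak hair cell markers and high blood and immune markers of the OHCs, given above, moved with these ratios, and their part was not tested. Atp6v1e1 was at 246, 98.9 and 318 CPM in basal, middle and apical IHCs, against 1.44, 92.9 and 98.6 CPM in OHCs.

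Of 15 glutamate supply genes past the filter, out of 18 listed, 6 were at least 2-fold higher and 1 lower in IHCs (median 0.79). That count is close to the background of 39.2% higher. Glud1, the mitochondrial glutamate dehydrogenase, stood at 148, 38.8 and 37.1 CPM in basal, middle and apical IHCs, against 7.42, 23.6 and 2.46 CPM in OHCs (mean log2 2.77). Slc38a2, a carrier of glutamine and other neutral amino acids, was at 2.72, with 7.41 in the base and −0.43 in the middle. Glul, the glutamine synthetase of glia and supporting cells, was at −0.97, and Slc25a13, a mitochondrial aspartate and glutamate carrier, was lowest at −1.48. Slc25a13 had 6858 counts in basal OHCs, from 2 cells.

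Among plasma membrane glutamate transporters, 3 of 6 listed genes passed the filter. Slc1a3, the glutamate uptake carrier GLAST of supporting cells and glia, was higher in IHCs in each region, at 175, 574 and 1016 CPM from base to apex, against 41.3, 162 and 57.3 CPM in OHCs. It is also 1 of 5 supporting cell markers, all of which were at least 2-fold higher in IHCs in the mean (median 2.67). Of the genes tested, 39.2% were that much higher in the mean, with a median of 0.59. Their summed medians were 4.94, 414 and 894 CPM in basal, middle and apical IHCs, against 0.365, 6.37 and 6.65 CPM in OHCs. The part of RNA from supporting cells in these levels was not tested. Slc1a2 was at −0.083 and Slc1a1 at −2.61.

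Of 10 glutamate receptor genes past the filter, out of 21 listed, 4 were higher and 3 lower in IHCs (median 0.35). The count of higher genes is close to the background of 39.2%, and 17.3% of the genes tested were lower. Among the receptors, Grin2b (1.93) and Gria3 (1.46) were highest and Grin2a (−1.61) and Grik5 (−1.29) lowest. Of the other SLC17 genes, Slc17a5, the lysosomal sialic acid carrier, and Slc17a9, a vesicular nucleotide carrier, passed the filter and were at 0.18 and 0.73. Both vesicular monoamine transporter genes were more than 2-fold higher in IHCs in the mean, as were 39.2% of the genes tested, Slc18a1 at 2.25 and Slc18a2 at 1.88. Few cells had reads, for Slc18a1 10, 8 and 16 IHCs and 1, 6 and 4 OHCs in base, middle and apex. For Slc18a2 the numbers were 3, 10 and 13 IHCs and 2, 4 and 3 OHCs. Each turned in 1 region, Slc18a1 to −1.21 in the middle and Slc18a2 to −1.41 in the base. Slc18a3 and Slc32a1, the carriers of acetylcholine and of GABA and glycine, did not pass the filter.

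Of 14 genes of vesicle release, 7 were at least 2-fold higher and 0 lower in IHCs in the mean, against 39.2% and 17.3% of the genes tested. The list's median of 0.64 is close to that of the genes tested (0.59). Otof (8.03) and Rims2 (6.24), which encodes a scaffold protein of the active zone, stood far above the rest. Rims2 was at 246, 273 and 69.8 CPM in basal, middle and apical IHCs, against 0.847, 0.355 and 3.39 CPM in OHCs. Bsn (−0.90), another scaffold gene, and Cacna1d (−0.77), which encodes the calcium channel subunit of IHC release, were lowest. In the apex 2 genes were higher and 5 lower, against backgrounds of 32.4% and 28.6%.

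**Figure D5:**
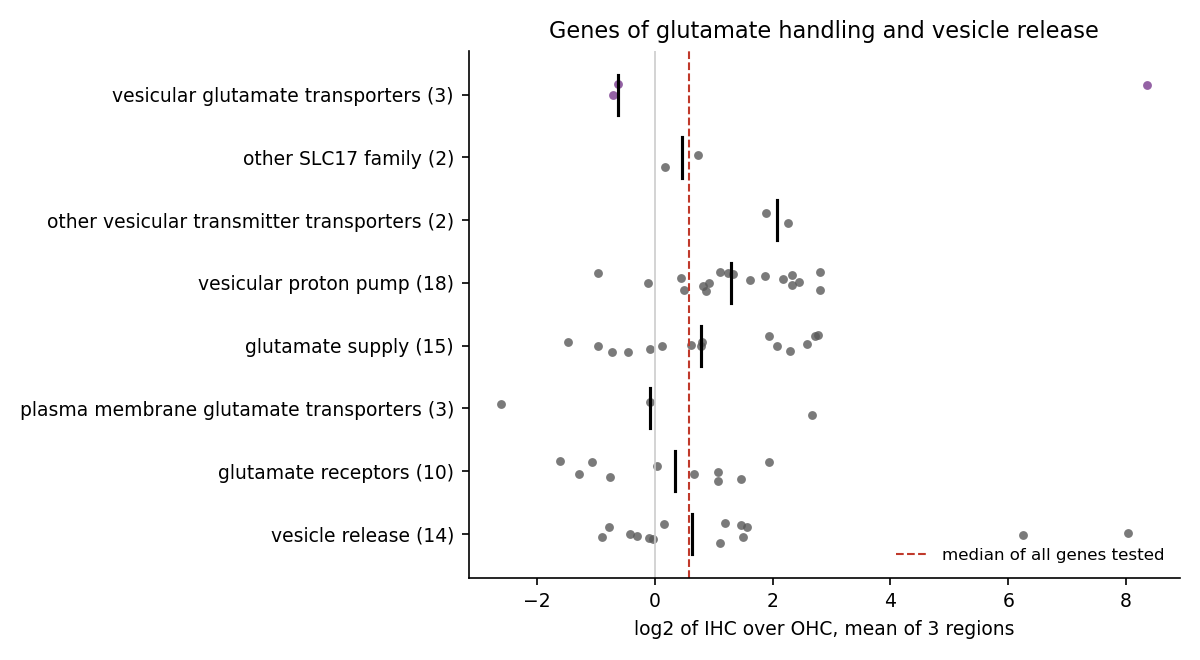
Mean over 3 regions of the log2 ratio of IHCs over OHCs for each listed gene past the filter (points), with list medians (bars), the number of genes in brackets and the median of all genes (dashed). Slc17a8 (8.36) stands with Otof (8.03) and Rims2 (6.24) far to the right, while Slc17a6 (−0.72) and Slc17a7 (−0.62) lie left of 0.

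The genes most like Slc17a8 were sought among 5687 genes with at least 10 CPM in 1 or more groups and reads in at least 50% of the cells of that group. From cell to cell over the 87 IHCs, the highest Spearman's rho was that of Calm2, a calmodulin gene, at 0.557 (0.628 over lower and 0.483 over higher numbers). Tmem87a, Osbpl6, Zfr, H3f3b, Pou4f3, Smarcc1, Homer2 and Minar2 were also among the 10 highest, with 0.504 to 0.461. Pou4f3 encodes a hair cell transcription factor and Homer2 a postsynaptic scaffold protein. The median rho over all genes ranked was 0.10, and Otof came at rank 389. Over the 6 group levels, on the log2 scale, the highest Pearson correlations were those of Herc4 (0.998), Cd96 (0.995), Tpbgl (0.993), Rims2 (0.990) and Pdpk1 (0.984). As the 6 levels fall into 2 sets by cell type, 46 genes reached 0.95, and Otof stood at 0.929. Calm2 was at 446, 903 and 2053 CPM in basal, middle and apical IHCs, against 41.4, 155 and 423 CPM in OHCs.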

How the data were processed

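Each sample is 1 cell (Illumina HiSeq 2500, per the labels). The authors deposited raw counts per gene for 139 cells. Per the submitters' processing notes, the tools were Trimmomatic, HISAT2 and featureCounts (Subread 1.4.6) with GRCm38 (mm10). For strandedness, molecular identifiers and reads with several matches, settings were not given in the sources used here. Identifiers were matched to GENCODE M21 symbols without their version. The 181 lines with no symbol held 0.00885% of the counts.

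The cells of each group were added up, and the sums were scaled with TMM (edgeR 4.0.16, R 4.3.3) to CPM. A single cell's CPM is relative to its own total. Ratios are log2((CPM + 1)/(CPM + 1)), which understates the differences of low genes. Genes needed 5 CPM in 1 or more groups. With 1 sample a group no test was run, and a difference of 2-fold served as the size rule. Intervals (95%) are exact, Poisson for levels and Clopper-Pearson for shares of cells. The ratio steps were tested on simulated counts. Members and gene lists were chosen with earlier results of these data known. By rule, the text named the members, Otof, the 2 highest and 2 lowest genes of each glutamate and release list and the most similar genes. A gene that the rule names is not reported here. Nefm, Prph, Slc18a3, Slc32a1 and Ocm were added after their values were seen. The alternatives included DESeq2 1.42.0 size factors.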

Additional observations from a re-analysis of the deposited data

Results flagged for a closer look

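In the group of 8 basal OHCs, the highest cell stood apart from the others for each of the 3 genes. The gap to the next cell, divided by the range of the group, exceeded Dixon's 95% critical value of 0.526 for 8 samples. Among normally spread replicates chance gives such a gap in about 1 of 20 groups. These are cells mostly at or near 0, where a lone cell with reads exceeds that value by construction, so the gaps are a description of 1 group and no test. Slc17a8 was at 0.338 CPM in cell 4, from 2 counts, and at 0 in the other cells. Slc17a6 was at 75.4 CPM in cell 2, with the next cell at 1.52 CPM. Slc17a7 was at 171 CPM in cell 7, with the next cell at 5.24 CPM. The group is the smallest of the 6, and the other groups were not tested in this way because they hold more than 10 cells.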

How the results depend on the processing

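Slc17a8 stayed higher in IHCs under each of the 17 alternatives. Its mean log2 ratio, 8.36 as reported, was 8.04 with DESeq2 size factors, 7.80 with the median of the cells, 10.02 and 6.64 with pseudocounts of 0.1 and 5, 8.57 without the top cell of each group, 9.80 and 7.74 for lower and higher title numbers and 9.10 without the 2 apical OHCs with the most Slc17a8 (chosen after seeing the data, as was leaving out each cell in turn, which gave 8.21 to 8.82). Base over apex in IHCs, 0.71 as reported, was 0.60 with total counts, 0.85 with DESeq2 size factors, 0.66 and 0.37 with the mean and median of the cells, 0.75 without the deepest and 0.75 without the top cell of each group, 0.074 and 0.69 for lower and higher numbers, 0.67 for totals of at least 1000000, 0.59 without cells against their label, 1.16 without the cell with a suffix, 0.57 thinned and 0.40 to 1.18 with 1 cell left out. Middle over apex, 0.85 as reported, was 0.94, 0.60, 1.04 and 0.96 under the first 4 of these, then 0.90 without the top cells, 1.15 and −0.10 for lower and higher numbers, 0.82 for large totals, 0.80 without cells against their label, 1.30 without the suffix cell, 0.59 thinned and 0.57 to 1.32 with 1 cell left out. The mean ratio of Slc17a6, −0.72 as reported, was −1.14 with DESeq2 size factors, 0 with the median of the cells, −0.48 with a pseudocount of 5, −0.068 without the top cells, 0.31 and −1.34 for lower and higher numbers, −0.98 thinned and −1.14 to 0.34 with 1 cell left out, the last without basal OHC cell 2. That of Slc17a7, −0.62 as reported, was −1.10, 0.97, −0.48 and −0.11 under the same first 4, 0.36 and −0.84 for lower and higher numbers, 0.041 without cells against their label, −1.03 thinned and −1.08 to 0.11 with 1 cell left out. The cause of these moves was not tested.

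Ratios past 2-fold that turned were, for Slc17a6, IHCs over OHCs in the middle (1.11 for lower numbers), base over apex in OHCs (−0.59 without the top cells, −0.14 for lower numbers, and −1.27 to 2.54 with 1 cell left out, the first without basal OHC cell 2) and middle over apex in OHCs (−0.23 for lower numbers). For Slc17a7 they were IHCs over OHCs in the apex (0.20 for lower numbers), base over apex (−1.72) and base over middle (−1.0) in IHCs for higher numbers, and middle over apex in OHCs (1.45 for lower numbers). Dropping the filter on low genes moved no count of genes past 2-fold by over 1.5 times, while the shares given refer to the 15004 genes past that filter. No paired analysis was possible because the replicate numbers follow accession order only and no result comes from a test.

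Depth limits what the OHC values can show. The 8 basal OHCs sum to 28574809 counts, and 3 counts over that group correspond to 0.149 CPM, above their Slc17a8 level. In the higher series only 2 basal OHCs remain, with 0 counts of Slc17a8, where 3 counts correspond to 1.28 CPM and the exact Poisson interval reaches 1.58 CPM.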

Other observations

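Otof reads reached 100 CPM in 8 OHCs without 100 CPM of Slc17a8 in any OHC. Middle OHC cell 12, 1 of the cells whose markers go against their label, had 3671 CPM of Otof, 0 CPM of Ocm and 0 CPM of Slc17a8. Its total was only 73282 counts, 269 of them from Otof. The 5 IHCs whose markers go against their label had Slc17a8 levels of 469 CPM (apical cell 5), 1.48 CPM (apical cell 8), 0 CPM (apical cells 18 and 22) and 2.78 CPM (middle cell 30). Apical IHC cell 22 had a total of only 103101 counts.

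Middle IHC cell 33, which held the most Slc17a8 reads of any cell at 38116 counts, and basal IHC cell 12 with 23289 counts both have lower title numbers.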
